A study of Homo sapiens with 54 samples.

Results

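The libraries labelled SP6A and SP14 are 4 bulk RNA libraries, 2 of each label, out of 32 bulk RNA libraries in a series of 54 samples. Their labels define the group, and they were set together against the 4 libraries of 3D day 12. All of them came from H1, an established human embryonic stem cell line, are labelled as macrophages, and carry the protocol label 3D; the series concerns macrophages grown from pluripotent cells in a porous 3D microscaffold. In the SP6A and SP14 libraries the name stands in the field that holds the culture day for the others, so neither their culture day nor the meaning of the names is known here. SP6A, SP14 and day 12 share the cell line and the protocol label, and no agent or serum is named for any of them. A further set of 9 libraries, 3 each of 3D days 16, 19 and 23 without FBS (fetal bovine serum) in the title, served as a second point of comparison. The labels do not say that replicates came from separate cultures, so the p-values below measure the spread between these libraries, which may be technical, and all of them rest on 1 cell line.

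A macrophage is the phagocyte of tissues. It depends on signalling through the receptor of colony-stimulating factor 1, digests what it takes up in lysosomes, and stores or exports the cholesterol it frees. Tissue-resident macrophages, many of which arise before birth, differ from blood monocytes in the receptors they carry, and some can divide in place, whereas inflammatory signals switch on cytokine genes through NF-kB and AP-1.

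Values are TPM, a read level per transcript length, scaled so that every library has the same total. The deposited values give no read numbers, so the depth of each library is unknown. Between 12447 and 13257 genes reached 1 TPM in the SP6A and SP14 libraries, against 11949 to 12272 in the day 12 libraries. Day 12 replicate 4 stood apart from the other 3 day 12 libraries: ribosomal protein genes made up 9.40% of its TPM, against 13.99% to 14.9% in the others, and its C1QC level, a complement gene of macrophages, was 236 TPM against 1725 to 2069 TPM. A limma fit was made on log2(TPM + 1) for every gene whose mean across these 8 libraries reached 1 TPM, and a gene is called where its Benjamini-Hochberg adjusted p is under 0.05. Bulk libraries cannot tell fewer cells of a type apart from less RNA of that gene per cell.

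Most of the transcriptome differed. Of 12942 genes tested, 4411 (34.1%) were higher in the SP6A and SP14 libraries than at day 12 and 3253 (25.1%) were lower, and 7664 (59.2%) were called in either direction. Among them, 5076 differed by more than 2-fold and 1478 by more than 4-fold. With the libraries scaled by median-ratio factors in place of TPM as deposited, the median change over all genes moved to 0.02 on the log2 scale, against 0.18 as deposited, and the split was 3767 higher and 3816 lower. In 6977 genes (53.9%) the 4 SP6A and SP14 libraries did not overlap the 4 day 12 libraries. Set against day 12 one label at a time, SP6A had 3815 genes higher (29.5%) and 2660 lower (20.6%), 50% in either direction, and SP14 had 3875 higher (29.9%) and 2976 lower (23%), 52.9% in either direction. Both of these comparisons use the same 4 day 12 libraries. With median-ratio scaling the SP6A split was 3109 higher and 3298 lower and the SP14 split 3456 and 3361. The correlation of log2(TPM + 1) across genes, which are not independent replicates, was 0.937 to 0.952 between day 12 libraries. It was 0.962 within SP6A, 0.961 within SP14 and 0.945 to 0.957 between SP6A and SP14 libraries. Between SP6A or SP14 libraries and day 12 libraries it was 0.758 to 0.805.

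**Figure D1:**
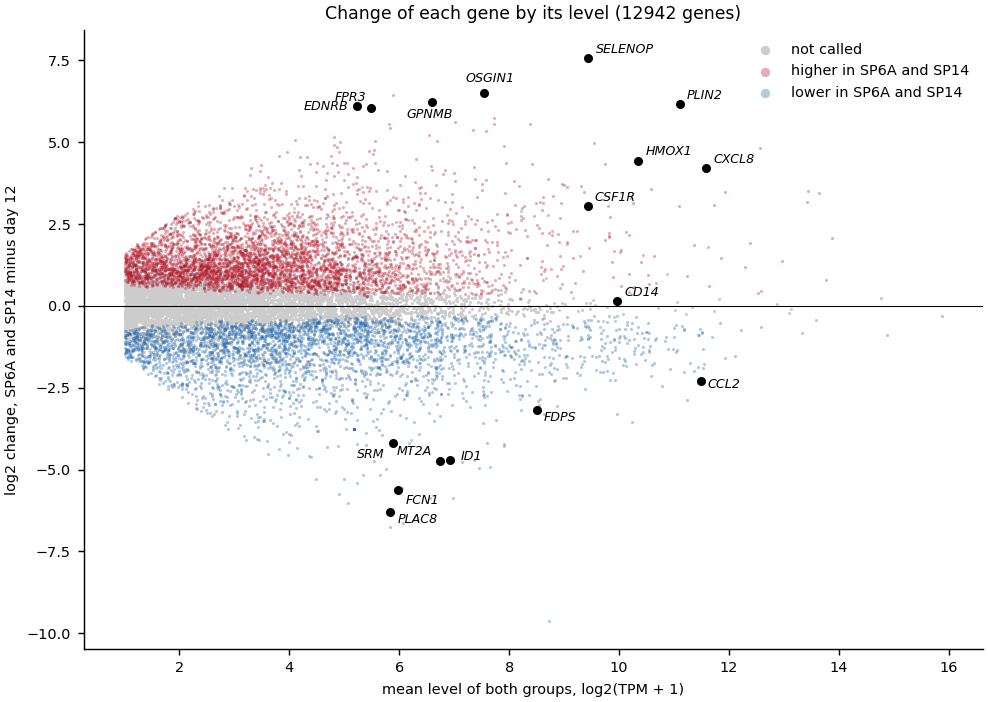
Each point is a gene, with the mean level of both groups on the x axis in log2(TPM + 1) and the log2 change, SP6A and SP14 minus day 12, on the y axis; red and blue points are the 4411 genes called higher and the 3253 called lower, and black points are genes named in the text. SELENOP has the largest change among the labelled genes that were higher, at 7.56, CD14 lies near 0, and PLAC8 lies at -6.30.

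The size of a gene in the genome moved with its change. Over 10822 protein-coding genes with a RefSeq span, the median log2 change was -0.36 in quartile 1 of span (the shortest genes), 0.10 in quartile 2, 0.33 in quartile 3 and 0.52 in quartile 4. In quartile 1, 24.5% were higher and 44.7% lower, and in quartile 4, 46.1% were higher and 13.7% lower. Of the cytosolic ribosomal protein genes 65 of 74 lay in quartile 1, as did 42 of 69 nuclear-encoded respiratory chain genes, 2 lists in which most genes were lower. The list of cytokines and chemokines had 22 of 27 genes in quartile 1 and a median change of 2.30. The part of gene span, or of library preparation, in the changes was not tested.

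**Figure D2:**
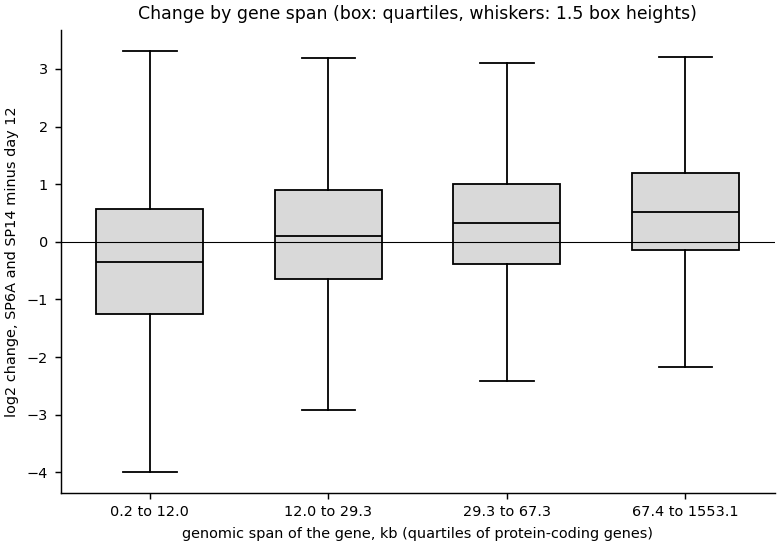
Each box holds the log2 change, SP6A and SP14 minus day 12, of the protein-coding genes in 1 quartile of genomic span, given in kb on the x axis, with the median line, the quartiles and whiskers of 1.5 box heights. The medians are -0.36, 0.10, 0.33 and 0.52 from the shortest to the longest spans.

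Some features were all or none between the groups. Counting all genes in the table, 74 were listed at 0 in all 4 SP6A and SP14 libraries with a mean of at least 5 TPM at day 12, and 55 were at 0 in all day 12 libraries with a mean of at least 5 TPM in the SP6A and SP14 libraries. Only 6 in each set matched a protein-coding gene of RefSeq. In the same order, 12 and 13 matched a pseudogene, and 30 and 29 had no RefSeq match. For near-identical copies of abundant genes the assignment of reads is uncertain. FTLP2, a pseudogene of the ferritin light chain gene, was at 30.4 to 35.5 TPM in the SP6A and SP14 libraries and at 0 in every day 12 and later library. UBBP4, a copy of a ubiquitin gene, is outside these sets. It was at 53.2 to 68.4 TPM in the SP6A and SP14 libraries, against 0.67 to 0.94 TPM at day 12. MT-RNR2, the large ribosomal RNA of mitochondria, is also outside them. Its level was 13742 to 34679 TPM in the SP6A and SP14 libraries, against 4775 to 6649 TPM at day 12. Whether read assignment or library preparation differed between the groups was not tested.

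Macrophage markers were present in both groups. All 17 genes of the macrophage marker list were tested, and all were above 0 in every SP6A, SP14 and day 12 library. In the SP6A and SP14 libraries 9 were higher (52.9%), 3 were lower (17.6%) and 5 were not called. The shares over all genes were 34.1% higher and 25.1% lower. The summed level of the list was 23200 to 26200 TPM against 13400 to 15600 TPM at day 12. AIF1 was among the members with a negative change, at -0.68 on the log2 scale. CSF1R, the receptor of colony-stimulating factor 1 (chromosome 5, 150053295 to 150113365, GRCh38.p14), was at 1105 and 1153 TPM in the SP6A libraries and at 1358 and 1299 TPM in the SP14 libraries, against 145, 165, 154 and 131 TPM at day 12. Every SP6A and SP14 library lay above every day 12 library, and the log2 change was 3.04 ± 0.11 (SE, adjusted p = 3.74e-08, limma). CD68, a lysosomal membrane protein of macrophages, and MS4A7, a membrane protein of macrophages, were higher by 2.71 ± 0.13 and 3.15 ± 0.16 on the log2 scale. CD14, the co-receptor of lipopolysaccharide, averaged 1047 ± 26.6 TPM in the SP6A and SP14 libraries and 954 ± 109 TPM at day 12 (SD, n = 4 each) and was not called (log2 change 0.14 ± 0.10, adjusted p = 0.27, limma). SPI1, which encodes the myeloid factor PU.1, spread from 86.8 to 223 TPM in the SP6A and SP14 libraries and from 32.6 to 142 TPM at day 12, and these ranges overlapped. SPI1 was called without SP14 replicate 2 (1.19, adjusted p = 0.049, limma). The complement genes C1QB and C1QC were not called; the log2 change of C1QC was 0.98 with all libraries and 0.23 without day 12 replicate 4.

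Genes of tissue-resident macrophages were mostly higher. Of 22 tested, 16 were higher and 3 lower than at day 12, with a median log2 change of 1.44 against 0.18 over all genes, and the summed level was 25200 to 26100 TPM in the SP6A and SP14 libraries, against 3670 to 6240 TPM at day 12. SELENOP, a secreted selenium carrier protein that marks resident macrophages (chromosome 5, 42799880 to 42811892, GRCh38.p14), was at 1255 and 1316 TPM in the SP6A libraries and at 1435 and 1531 TPM in the SP14 libraries, against 4.97, 4.28, 8.22 and 8.77 TPM at day 12. The groups were far apart, and the log2 change of 7.56 ± 0.20 was the largest increase among genes that met the naming rule (adjusted p = 1.35e-08, limma). F13A1, the A subunit of coagulation factor XIII, averaged 654 ± 13.9 TPM against 13.3 ± 3.55 TPM at day 12 (SD, n = 4 each). FOLR2, a folate receptor of resident macrophages, was at 1527 to 1629 TPM in the SP6A and SP14 libraries, against 164 to 225 TPM at day 12. LYVE1, a hyaluronan receptor of perivascular macrophages, averaged 84.4 ± 14.8 TPM against 19.5 ± 4.43 TPM at day 12 (SD, n = 4 each). The scavenger receptors MRC1 and CD163 were higher by 1.07 ± 0.13 and 1.25 ± 0.14 on the log2 scale.

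The list did not move as a whole. TIMD4, a phosphatidylserine receptor of resident macrophages, was at 12.6 to 16.8 TPM in the SP6A and SP14 libraries and at 33.4 to 77.2 TPM at day 12, without overlap, and fell by 1.77 ± 0.23 on the log2 scale (adjusted p = 9.00e-05, limma). ID1 and ID3, inhibitors of helix-loop-helix factors, were the other 2 that were lower. MAF, a transcription factor gene, averaged 14.3 ± 3.68 TPM against 19.3 ± 2.84 TPM at day 12 (SD, n = 4 each) and was not called.

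Of 13 monocyte genes tested, 3 were higher than at day 12 and 6 lower. FCN1, a secreted lectin of monocytes, was at 2.94 and 0.93 TPM in the SP6A libraries and at 1.52 and 1.07 TPM in the SP14 libraries, against 106, 129, 127 and 130 TPM at day 12. PLAC8, a protein of monocytes and granulocytes, was at 0.17 to 0.99 TPM in the SP6A and SP14 libraries, against 94.7 to 122 TPM at day 12. All SP6A and SP14 values of both genes lay far below all day 12 values, with log2 changes of -5.62 ± 0.22 and -6.30 ± 0.20. S100A8 and S100A9, which form the calcium-binding protein calprotectin, fell by 2.74 ± 0.18 and 1.90 ± 0.14. The 3 that were higher were LYZ, FCGR3A and SORL1.

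Against days 16, 19 and 23, 3963 of 13034 genes tested (30.4%) were higher in the SP6A and SP14 libraries and 2763 (21.2%) were lower, 51.6% in either direction. With median-ratio scaling the split was 3473 higher and 3214 lower. In that comparison 18 of 22 resident macrophage genes were higher and 1 was lower, and of 10 monocyte genes 4 were higher and 2 lower, with a median log2 difference of 0.16. SELENOP ran from 12.9 to 326 TPM in the 9 later libraries with a median of 151, all below the SP6A and SP14 libraries, and the log2 difference was 4.08 (adjusted p = 1.23e-09, limma). CD163, at 274 to 445 TPM in the later libraries, did not differ at the threshold (log2 difference 0.22, adjusted p = 0.18, limma). TIMD4, lower than at day 12, was higher than in the later libraries, where it ran from 0 to 3.80 TPM (log2 difference 2.74, adjusted p = 2.98e-07, limma). MARCO, a scavenger receptor, was at 0.30 to 1.39 TPM in the SP6A and SP14 libraries, against 29.8 to 45.7 TPM at day 12 and 106 to 1252 TPM in the later libraries.

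**Figure D3:**
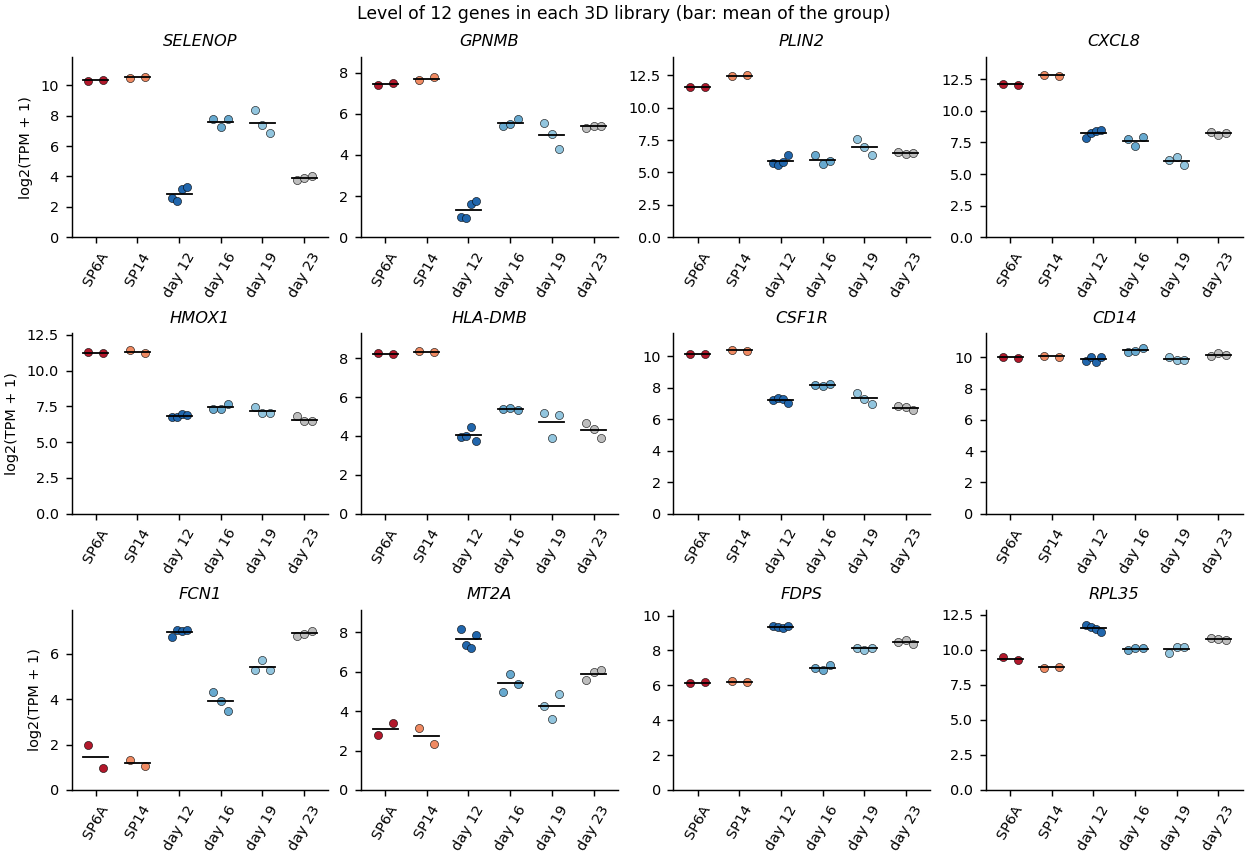
Each point is 1 library, with the level in log2(TPM + 1) on the y axis and the bar at the group mean, for SP6A (n = 2), SP14 (n = 2), day 12 (n = 4) and days 16, 19 and 23 (n = 3 each). In SELENOP, GPNMB, PLIN2, CXCL8, HMOX1, HLA-DMB and CSF1R all SP6A and SP14 points lie above the 4 day 12 points, in FCN1, MT2A, FDPS and RPL35 they lie below, and in CD14 the groups overlap.

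Markers of other cell types were mixed. Dendritic cell markers were lower, 4 of 5 tested with none higher, and summed to 31.2 to 42.5 TPM against 142 to 168 TPM at day 12. CD1A, CD1B, CD1C and the factor gene BATF3 were the lower ones. Granulocyte markers summed to 43.4 to 62.0 TPM against 288 to 435 TPM, with 5 of 8 tested lower and 1 higher. Mast cell, basophil and eosinophil markers summed to 172 to 319 TPM against 16.2 to 21.7 TPM in day 12 replicates 1 to 3 and 424 TPM in replicate 4; 6 of 10 tested were higher and 1 was lower. CLC, the gene of the Charcot-Leyden crystal protein of eosinophils and basophils, chosen after its values were seen, was at 135 to 267 TPM in the SP6A and SP14 libraries, against 0 in 3 day 12 libraries and 228 TPM in replicate 4 (log2 change 5.62, and 7.58 without that replicate). Erythroid markers, 9 of which were tested and none called, summed to 363 to 396 TPM against 31.7, 1570, 1750 and 200 TPM at day 12, and to 2.59 to 10.1 TPM in the later libraries.

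Endothelial markers summed to 335 to 380 TPM against 71.7 to 133 TPM at day 12, with 2 of 4 tested higher and 1 lower. PECAM1, an adhesion molecule that macrophages also carry, was at 87.6 to 118 TPM against 4.68 to 5.45 TPM at day 12. Most of the SP6A and SP14 sum lay in other markers of the list, which are not named here. CDH5, the defining cadherin of endothelium, was lower, averaging 1.39 ± 0.20 TPM against 2.83 ± 0.63 TPM (SD, n = 4 each). CDH5 was not called without day 12 replicate 2 or without SP6A replicate 2. In all SP6A and SP14 libraries 5 of the 14 markers were at 0. Fibroblast and stromal markers had 2 of 9 higher and 1 lower, and megakaryocyte and platelet markers 2 of 6 higher and 2 lower. Haematopoietic progenitor markers had 2 of 3 higher and 1 lower, and neural markers 1 of 3 in each direction. The fibroblast shares (22.2% and 11.1%) lay under those over all genes, 34.1% higher and 25.1% lower. The megakaryocyte and neural shares (33.3% each way) lay near them. These small counts moved with single libraries: the lower fibroblast markers were 4 without day 12 replicate 1 and none without day 12 replicate 2 or 3 or either SP6A library, and no megakaryocyte marker was higher without day 12 replicate 1, SP6A replicate 1 or SP14 replicate 1. The lower progenitor marker lost its call without day 12 replicate 1 or 2, SP6A replicate 1 or SP14 replicate 1, and the lower neural marker without day 12 replicate 1 or 2. Epithelial markers had 2 of 4 lower, the single pluripotency marker tested was lower, and the single hepatic marker was higher, a call lost without SP6A replicate 2 or SP14 replicate 2. Lymphoid markers summed to 27.4 to 39.8 TPM against 198 to 227 TPM at day 12, without overlap. Of the 3 tested, NKG7, a protein of cytotoxic granules, was lower and made up most of the day 12 sum, averaging 6.41 ± 1.66 TPM against 206 ± 15.6 TPM (SD, n = 4 each), and IL7R, the interleukin-7 receptor, was higher. No mesoderm or cardiac marker reached the level needed for the test. The part of other cell types in the results below was not tested.

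The lysosome list held the most one-sided increase among lists of more than 30 genes. Of 35 genes, all tested, 31 were higher and 1 was lower, with a median log2 change of 1.95, and the summed level was 26800 to 32300 TPM against 7050 to 8130 TPM at day 12. ASAH1, the acid ceramidase, was at 683 and 711 TPM in the SP6A libraries and at 832 and 909 TPM in the SP14 libraries, against 47.6, 48.7, 61.9 and 52.0 TPM at day 12. No library of one group reached the range of the other (log2 change 3.87 ± 0.13, adjusted p = 2.28e-08, limma). LAMP2, a main protein of the lysosomal membrane, LGMN, the protease legumain, and TPP1, a tripeptidyl peptidase, were higher by 3.43 ± 0.14, 3.37 ± 0.10 and 3.10 ± 0.12 on the log2 scale. The factor gene TFEB, which encodes a regulator of lysosomal genes, was the 1 that was lower, a call lost without day 12 replicate 3 or either SP14 library, and MITF, of the same factor family, was at 36.4 to 43.2 TPM against 3.16 to 4.42 TPM at day 12. Against the later days 27 of 35 lysosome genes were higher and 4 were lower.

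The CLEAR element, TCACGTGA in its palindromic form, is the sequence that factors of the TFEB family bind at lysosomal genes, and it contains the E-box CACGTG. Promoters in RefSeq, searched over 250 bases before the start on both strands, were found for 21 of the 35 lysosome genes, and 5 of them (23.8%) held it, against 0.89% of all 27305 promoters. The 5 were ATP6V0D1, CTSA, GAA, LAMP1 and MCOLN1, all higher in the SP6A and SP14 libraries. Most lysosome genes whose promoters held no element were higher too, among them CTSD, TPP1 and LIPA (log2 changes 3.08, 3.10 and 2.94). CD63, CTSH and CTSZ, also without it, were not called, and TFEB was lower. The part of the element in the changes was not tested. A match is a description of the sequence and not a bound site. The last 100 bases before the start of 3 of the 5 genes with a match are shown on the GRCh38.p14 plus strand. The 3 were chosen after their values were seen because their matches lie close to the start. With the element in capitals, they are GAA at chr17:80101481-80101580, MCOLN1 at chr19:7522524-7522623 and CTSA at chr20:45891235-45891334.
GAA: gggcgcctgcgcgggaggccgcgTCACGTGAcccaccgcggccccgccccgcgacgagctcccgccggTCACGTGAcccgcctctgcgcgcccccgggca
MCOLN1: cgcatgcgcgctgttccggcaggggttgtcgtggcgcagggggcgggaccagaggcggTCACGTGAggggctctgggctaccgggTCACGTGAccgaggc
CTSA: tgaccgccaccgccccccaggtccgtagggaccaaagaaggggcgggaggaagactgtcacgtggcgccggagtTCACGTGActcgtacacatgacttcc
GAA, the acid alpha-glucosidase that breaks down glycogen, has 2 elements and was at 127 to 160 TPM in the SP6A and SP14 libraries, against 11.1 to 19.1 TPM at day 12. MCOLN1, the lysosomal cation channel mucolipin, also has 2 and was at 106 to 128 TPM, against 9.17 to 41.2 TPM at day 12, the lowest of these in replicate 4. CTSA, the protective protein cathepsin A, has 1 and was at 395 to 459 TPM, against 76.3 to 97.1 TPM. All 3 genes were without overlap, and MCOLN1 did not differ from the later days at the threshold (log2 difference -0.25, adjusted p = 0.13, limma).

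Genes of lipid-laden macrophages were higher in 11 of 20 and lower in 3. PLIN2, the coat protein of lipid droplets (chromosome 9, 19108388 to 19127492, GRCh38.p14), was at 3007 and 3038 TPM in the SP6A libraries and at 5445 and 5894 TPM in the SP14 libraries, against 50.9, 47.2, 54.8 and 79.3 TPM at day 12. Both SP14 libraries lay above both SP6A libraries, and all 4 lay above day 12 (log2 change 6.16 ± 0.25, adjusted p = 6.44e-08, limma). GPNMB, a membrane glycoprotein of lipid-laden macrophages and osteoclasts, was at 167 to 216 TPM against 0.91 to 2.38 TPM at day 12 (log2 change 6.24 ± 0.21). APOE, a lipoprotein component, was at 765 and 741 TPM in the SP6A libraries and at 456 and 189 TPM in the SP14 libraries, against 25.6 to 56.0 TPM at day 12, so that the SP14 libraries were the lower of the 4. LIPA, the lysosomal acid lipase, and ACP5, the tartrate-resistant phosphatase, were higher by 2.94 ± 0.14 and 3.89 ± 0.12 on the log2 scale. TREM2, a lipid-sensing receptor, averaged 929 ± 180 TPM against 319 ± 5.53 TPM at day 12 (SD, n = 4 each). SPP1, or osteopontin, averaged 7676 ± 2220 TPM against 7302 ± 1355 TPM and was not called.

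Cholesterol export and synthesis moved in opposite directions. LXR, a receptor of oxidised sterols, drives export, and SREBP-2 drives synthesis when sterols are scarce. Of 13 LXR and cholesterol efflux genes, 10 were higher and 1 lower; of 26 sterol and fatty acid synthesis genes, 1 was higher and 21 were lower. The synthesis genes summed to 417 to 593 TPM in the SP6A and SP14 libraries, against 1770 to 2110 TPM at day 12, and against the later days 1 of 25 was higher and 21 were lower. CYP27A1, the enzyme that makes 27-hydroxycholesterol, was at 149 to 212 TPM against 2.69 to 5.12 TPM at day 12. ABCA1, the transporter that exports cholesterol, was at 47.2 to 64.7 TPM against 1.83 to 2.57 TPM, and SMPDL3A, a phosphodiesterase gene under LXR control, was higher by 3.10 ± 0.17 on the log2 scale. FDPS, the farnesyl diphosphate synthase (chromosome 1, 155308866 to 155320665, GRCh38.p14), was at 69.7 and 70.9 TPM in the SP6A libraries and at 74.96 and 70.97 TPM in the SP14 libraries, against 665, 661, 615 and 673 TPM at day 12. No values of these genes overlapped, and FDPS fell by 3.17 ± 0.09 (adjusted p = 1.35e-08, limma). DHCR7 and FDFT1, which act later in the pathway, fell by 2.76 ± 0.13 and 2.54 ± 0.13. SCD, a desaturase under both LXR and SREBP control, was the 1 of the LXR list that was lower, at 16.2 to 19.5 TPM against 76.4 to 82.2 TPM.

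NRF2 is the factor that answers oxidants by switching on genes for glutathione, thioredoxin and haem breakdown. Of 20 genes of its list, 15 were higher and 3 lower, with a median log2 change of 1.71. OSGIN1, an oxidative stress response gene, was at 269 and 271 TPM in the SP6A libraries and at 488 and 438 TPM in the SP14 libraries, against 1.78, 2.88, 3.17 and 3.94 TPM at day 12, a log2 change of 6.52 ± 0.24 (adjusted p = 3.80e-08, limma). HMOX1, the haem oxygenase, was at 2478 and 2396 TPM in the SP6A libraries and at 2718 and 2390 TPM in the SP14 libraries, against 108, 108, 122 and 119 TPM at day 12. The groups of both genes were far apart, and HMOX1 was also above all later libraries, which ran from 86.5 to 202 TPM. SQSTM1, an adaptor of selective autophagy, and ME1, the malic enzyme, were higher by 4.35 ± 0.21 and 3.57 ± 0.17 on the log2 scale. The 3 that were lower, TXN, PRDX1 and FTL, changed by -0.68, -0.46 and -0.31, and FTL lost its call when any library but day 12 replicate 3 was left out. Against the later days 16 of 20 were higher and 2 lower.

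The antioxidant response element, searched as TGACNNNGC on both strands, shares its opening letters with the AP-1 motif. It stood in 4 of 14 promoters found for the 20 genes (28.6%), against 11% of all promoters, in GCLM, ME1, PGD and TXNRD1, all 4 higher. AKR1B1, GCLC, NQO1, OSGIN1, SQSTM1 and SRXN1, whose promoters held no element, were also higher. TALDO1 and TKT, without it too, were not called, and FTL and TXN were lower. The part of the element in the changes was not tested. Stretches of 2 of the 4 promoters that held it, chosen after their values were seen, are shown 5′ to 3′ along the gene on GRCh38.p14. With the element in capitals, they are TXNRD1 at chr12:104215649-104215718 on the plus strand and GCLM at chr1:93909431-93909500 on the minus strand.
TXNRD1: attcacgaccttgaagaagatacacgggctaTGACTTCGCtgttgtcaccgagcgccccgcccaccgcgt
GCLM: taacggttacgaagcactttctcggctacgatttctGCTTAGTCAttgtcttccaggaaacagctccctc
In GCLM the element is read on the opposite strand. TXNRD1, the cytosolic thioredoxin reductase, was at 143 and 153 TPM in the SP6A libraries and at 257 and 304 TPM in the SP14 libraries, against 9.06 to 12.6 TPM at day 12. GCLM, the modifier subunit of glutamate-cysteine ligase, was at 7.98 and 7.65 TPM in the SP6A libraries and at 70.3 and 15.3 TPM in the SP14 libraries, against 1.29 to 6.24 TPM. SP14 replicate 1 was the high one in GCLM, whose log2 change was 2.22 with it and 1.54 without it, and the groups of both genes did not overlap.

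Iron and metal genes split. Iron handling genes were higher in 8 of 12 and lower in 3 (25%, near the 25.1% over all genes). SLC40A1, which encodes the iron exporter ferroportin, was at 53.7 to 70.04 TPM in the SP6A and SP14 libraries, against 1.68 to 2.36 TPM at day 12 and 0 to 7.02 TPM in the later libraries. None of the 7 metallothionein and zinc transport genes tested was higher and 6 were lower, and the list summed to 22.4 to 41.0 TPM against 256 to 675 TPM at day 12. MT2A, a zinc- and copper-binding metallothionein, was at 5.94 and 9.70 TPM in the SP6A libraries and at 7.74 and 4.01 TPM in the SP14 libraries, against 288, 162, 145 and 229 TPM at day 12. MT1X was at 6.50 to 15.6 TPM against 84.4 to 224 TPM. Neither gene overlapped between the groups, with log2 changes of -4.72 ± 0.27 and -3.54 ± 0.32 (adjusted p = 4.41e-07 and 7.73e-06, limma). Metallothionein genes are close copies of each other, so the split of reads among them is uncertain.

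The metal response element is bound by MTF1 when zinc is plentiful. It was searched as TGCNCNC on both strands, a short pattern that 48.4% of all promoters held. All 4 promoters found for the list held it. SLC30A1, with 1 match, was not called (log2 change 0.20), and MT1H, with 8, was lower. The part of the element in the changes was not tested. MT2A had 7 matches and MT1X 4 over 250 bases. The last 180 bases before the starts, shown because these 2 genes were among those that fell, hold 6 and 4 of them in capitals, on the GRCh38.p14 plus strand at chr16:56608404-56608583 and chr16:56682290-56682469.
MT2A: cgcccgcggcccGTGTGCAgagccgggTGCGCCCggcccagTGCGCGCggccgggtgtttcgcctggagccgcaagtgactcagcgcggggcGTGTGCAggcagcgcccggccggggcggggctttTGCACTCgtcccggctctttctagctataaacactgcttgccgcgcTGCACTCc
MT1X: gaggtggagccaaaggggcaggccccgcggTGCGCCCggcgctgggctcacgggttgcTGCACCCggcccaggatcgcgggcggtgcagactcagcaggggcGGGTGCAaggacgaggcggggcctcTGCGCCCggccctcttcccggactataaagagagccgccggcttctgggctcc

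Inflammatory cytokine and chemokine genes were higher in 16 of 27 and lower in 7, with a median log2 change of 2.30. CXCL8, the neutrophil attractant interleukin-8 (chromosome 4, 73740569 to 73743716, GRCh38.p14), was at 4424 and 4348 TPM in the SP6A libraries and at 7383 and 7100 TPM in the SP14 libraries, against 227, 299, 338 and 364 TPM at day 12. Its lowest SP6A or SP14 value lay well above the highest day 12 value (log2 change 4.22 ± 0.21, adjusted p = 2.16e-07, limma). CXCL3 and CXCL1, attractants of the same family, were higher by 4.99 ± 0.21 and 3.56 ± 0.16, and CXCL16, a chemokine that is also a scavenger receptor, by 4.34 ± 0.16. TNF, the gene of tumour necrosis factor, averaged 954 ± 74.2 TPM against 194 ± 33.0 TPM, and IL1B, of interleukin-1 beta, 4170 ± 1300 TPM against 1107 ± 77.2 TPM at day 12 (SD, n = 4 each). Some members went down, and the share that was lower (25.9%) was near the 25.1% over all genes. CCL2, the monocyte attractant, averaged 988 ± 244 TPM against 4744 ± 590 TPM, IL6, of interleukin-6, 59.2 ± 7.16 TPM against 163 ± 38.0 TPM, and IL1RN, the natural antagonist of interleukin-1, 10.1 ± 2.85 TPM against 339.5 ± 49.5 TPM (SD, n = 4 each). CCL13, CCL22, IL23A and EBI3 were the others that were lower. CCL3 and CCL4, both called higher, have near-identical copies, and their levels are uncertain.

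Against the later days 18 of 26 cytokine genes were higher and 5 lower, where 30.4% of all genes were higher and 21.2% lower. IL6, lower than at day 12, was higher than in the later libraries (6.72 to 42.5 TPM, log2 difference 1.63, adjusted p = 5.11e-05, limma), while CCL2 was lower than in both. NF-kB subunits and feedback inhibitors were higher in 15 of 19 and lower in 2, with ICAM1, an adhesion molecule under NF-kB control, at 744 to 1274 TPM against 69.1 to 89.6 TPM at day 12. Of 30 immediate early genes, the first to answer a stimulus, 18 were higher and 6 lower (20%, not far from the 25.1% over all genes). EGR2 was at 241 and 258 TPM in the SP6A libraries and at 488 and 505 TPM in the SP14 libraries, against 6.20 to 11.2 TPM at day 12. JUN, a subunit of AP-1, was at 141 to 158 TPM against 5.27 to 6.37 TPM, and EGR1 averaged 239 ± 47.3 TPM against 17.1 ± 7.82 TPM (SD, n = 4 each). FOS, the other main AP-1 subunit, was not called.

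Receptors for bacterial products and antibodies were higher in 15 of 21 and lower in 2. Receptors for colony-stimulating factors and chemokines were higher in 9 of 14, with a median log2 change of 2.68. Of the latter, 3 were lower (21.4%, near the 25.1% over all genes). TLR2, a receptor of bacterial lipoproteins, was at 253 to 424 TPM in the SP6A and SP14 libraries, against 21.5 to 30.9 TPM at day 12. FPR3, a formyl peptide receptor, was at 70.6 to 104.5 TPM against 0.07 to 0.46 TPM (log2 change 6.05 ± 0.19). Neither overlapped between the groups. CX3CR1, the fractalkine receptor, was one of the lower ones, at 0.18 to 1.85 TPM against 29.2 to 35.7 TPM. Complement genes were higher in 11 of 17 and lower in 2, and scavenger and efferocytosis receptors in 15 of 20, with MARCO, TIMD4 and GAS6 lower.

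HLA class II and antigen presentation genes were higher in 11 of 13, and the other 2, HLA-DQB1 and HLA-DPB1, were lower. HLA-DMB, which helps load peptides onto class II molecules, was at 304 and 291 TPM in the SP6A libraries and at 326 and 321 TPM in the SP14 libraries, against 14.3, 15.2, 21.1 and 12.4 TPM at day 12. HLA-DRA, a class II chain, was at 57.2 to 81.1 TPM against 3.78 to 7.17 TPM, and CD86, a co-stimulatory ligand of T cells, at 394 to 521 TPM against 29.6 to 48.9 TPM. No values of the 3 genes overlapped between the groups. CD74, the invariant chain, was higher by 1.14 ± 0.16 on the log2 scale. HLA class I and peptide loading genes were higher in 10 of 12 and lower in 1. B2M, the light chain of class I molecules, averaged 8472 ± 869 TPM against 2267 ± 354 TPM (SD, n = 4 each).

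The type I interferon response was split between its members. Of 29 genes, 10 were higher, 8 lower and 11 not called, close to the shares over all genes, and with median-ratio scaling 9 were higher and 10 lower. Without day 12 replicate 1, or without either SP6A library, 5 were lower. The summed level was 850 to 953 TPM against 3160 to 3450 TPM at day 12, with the 3 members named next among the lower ones. IFITM1, a membrane protein that hinders virus entry, was at 9.68 to 13.5 TPM in the SP6A and SP14 libraries and at 299 to 345.5 TPM at day 12. IFI6, a mitochondrial protein, was at 52.7 to 92.8 TPM against 686 to 753 TPM, and ISG15, a ubiquitin-like protein, averaged 92.2 ± 15.1 TPM against 660 ± 64.7 TPM (SD, n = 4 each). IFI44, SIGLEC1 and the sensor IFIH1 were the members with the largest increases. IFITM1 did not differ from the later days at the threshold (log2 difference 0.36, adjusted p = 0.44, limma).

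**Figure D4:**
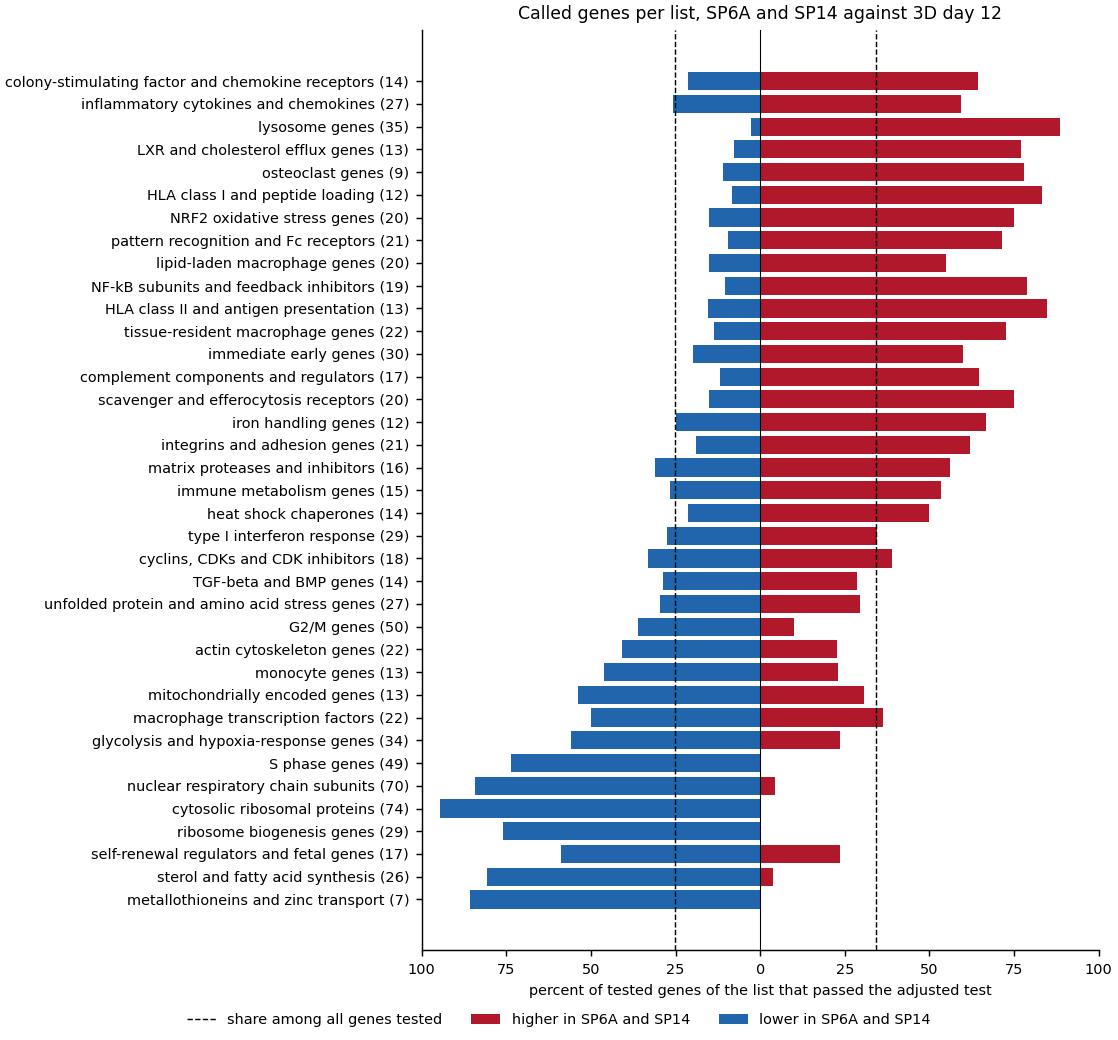
Each row is 1 gene list with the number of tested genes in brackets; the red bar to the right is the percent of them called higher in the SP6A and SP14 libraries and the blue bar to the left the percent called lower, and dashed lines give 34.1% and 25.1%, the shares over all genes tested. Lists are in order of their median change, from receptors for colony-stimulating factors and chemokines at 2.68 to metallothioneins at -3.39.

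More of the cell cycle genes called were lower than higher. Genes of S phase, in which DNA is copied, were lower in 36 of 49 with none higher. Genes of G2 and mitosis were lower in 18 of 50 and higher in 5, with a median log2 change of -0.19, and summed to 1730 to 2100 TPM against 2340 to 2930 TPM at day 12. The difference between the lists was not tested. GINS2, a part of the replicative helicase, was at 1.01 to 1.73 TPM in the SP6A and SP14 libraries, against 21.3 to 27.7 TPM at day 12, and CDCA7, a target of MYC and E2F, at 0.46 to 1.52 TPM against 11.8 to 30.6 TPM. MCM7, another helicase part, averaged 27.4 ± 2.27 TPM against 94.9 ± 11.3 TPM (SD, n = 4 each). None of the 3 overlapped. MKI67, the gene of the proliferation marker Ki-67, was at 12.0 and 12.4 TPM in the SP6A libraries and at 10.4 and 8.70 TPM in the SP14 libraries, against 17.4, 23.5, 16.6 and 18.6 TPM at day 12, and fell by 0.75 ± 0.17 on the log2 scale (adjusted p = 0.0034, limma). TOP2A, a topoisomerase of dividing cells, fell by 1.54 ± 0.29. CDK1, the kinase that starts mitosis, was higher, at 98.8 and 92.8 TPM in the SP6A libraries and at 138 and 141 TPM in the SP14 libraries, against 27.4, 26.1, 45.5 and 34.5 TPM at day 12 (log2 change 1.80 ± 0.21, adjusted p = 4.43e-05, limma). NUSAP1, CKAP2, LBR and ANLN were the other G2 and mitosis genes that were higher, and the count of higher ones was 3 without day 12 replicate 2 or either SP14 library and 7 without day 12 replicate 4. With the spread taken from all 3D libraries, 2 were higher and 8 lower.

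Against the later days 40 of 50 G2 and mitosis genes were higher and 1 was lower, with a median log2 difference of 1.25. Of 48 S phase genes, 6 were higher and 9 lower. Both S phase shares lay under those over all genes in that comparison, 30.4% higher and 21.2% lower. Erythroid markers moved with this comparison: 6 of 7 tested were higher than in the later libraries and none lower, with a median log2 difference of 5.59, and 11 of the 16 markers were at 0 in all later libraries. Their part in the G2 and mitosis values was not tested. CDK1 was higher by 2.82 (adjusted p = 2.67e-07, limma), and MKI67 and TOP2A, with log2 differences of 0.43 and -0.42, were not called; MKI67 was called without day 16 replicate 3 (0.56, adjusted p = 0.042, limma). Of 18 cyclins, cyclin-dependent kinases and their inhibitors, 7 were higher than at day 12 and 6 lower (38.9% and 33.3%, near the shares over all genes), or 7 and 2 with the spread taken from all 3D libraries, the higher ones including CDK6, at 40.4 to 52.0 TPM against 6.87 to 15.1 TPM, and the lower ones including CCND1 and CCND2.

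**Figure D5:**
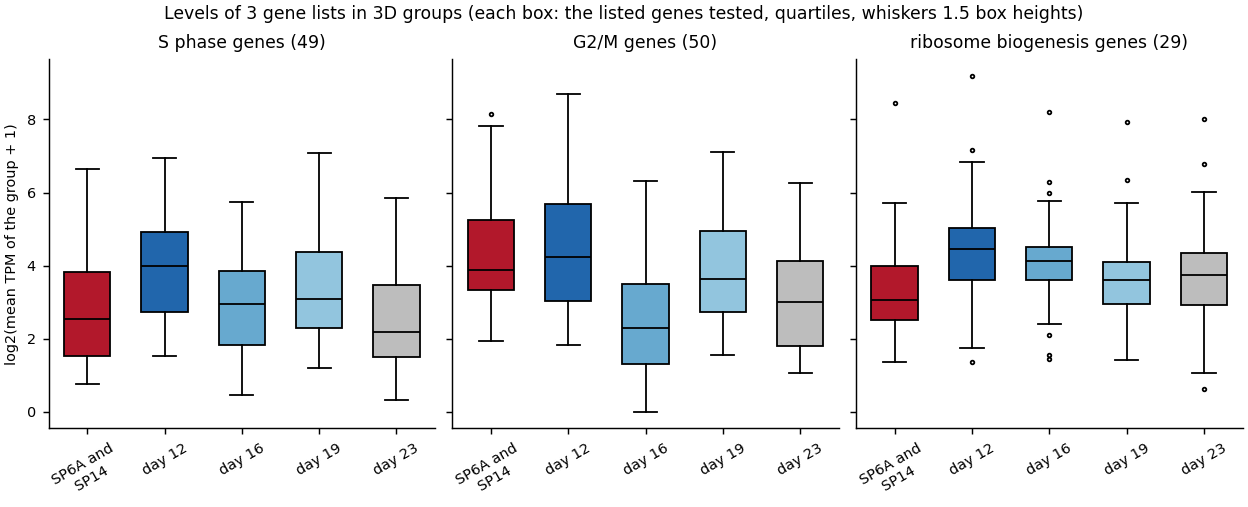
Each box holds the tested genes of 1 list in 1 group, with the mean level of the group in log2(TPM + 1) on the y axis, the median line, the quartiles and whiskers of 1.5 box heights, for the 4 SP6A and SP14 libraries, day 12 and days 16, 19 and 23. The G2 and mitosis box of the SP6A and SP14 libraries is close to that of day 12 and above that of day 16, while the S phase and ribosome biogenesis boxes lie below those of day 12.

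Self-renewal regulators and fetal genes, which the title of the series names as a theme, were lower in 10 of 17 and higher in 4, of which 2 were left without day 12 replicate 1 or replicate 4. MYC, a transcription factor gene that promotes growth and division, was at 6.22 and 7.99 TPM in the SP6A libraries and at 18.9 and 25.1 TPM in the SP14 libraries, against 24.8, 25.97, 28.5 and 24.7 TPM at day 12. The SP14 replicate 2 value reached the day 12 range, and the fall of 0.99 ± 0.37 on the log2 scale (adjusted p = 0.039, limma) lost its call when any 1 day 12 library or either SP6A library was left out (adjusted p = 0.061 to 0.11). KLF2 and KLF4, zinc-finger factors tied to macrophage self-renewal in mice, were at 0.15 to 0.45 TPM and 0.05 to 0.45 TPM, against 4.19 to 8.42 TPM and 5.10 to 8.17 TPM at day 12. ID1 averaged 8.53 ± 3.83 TPM against 233 ± 27.7 TPM, ID2 86.3 ± 8.06 TPM against 469.5 ± 57.2 TPM and ID3 39.1 ± 4.95 TPM against 169.5 ± 49.97 TPM (SD, n = 4 each). All of the KLF and ID values were without overlap. LIN28B, which blocks the microRNA let-7, and HMGA2, a chromatin protein of fetal cells, fell by 1.81 ± 0.25 and 2.46 ± 0.24. IGF2BP3, a fetal RNA-binding protein, was higher by 1.06 ± 0.28 (adjusted p = 0.0077, limma). Macrophage transcription factors were lower in 11 of 22 (50%, against 25.1% over all genes) and higher in 8, with MITF above among the higher ones. The share that was higher (36.4%) was near the 34.1% over all genes.

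Cytosolic ribosomal protein genes were lower in 70 of 74 with none higher, and made up 7.01% and 6.65% of TPM in the SP6A libraries and 5.01% and 4.86% in the SP14 libraries, against 14.9%, 13.99%, 14.1% and 9.40% at day 12. The groups did not overlap, and the exact two-sided permutation p was 0.0286, the smallest that 4 against 4 can give; without any 1 of the SP6A or SP14 libraries it was 0.0571. RPL35, of the large subunit, averaged 551 ± 138 TPM against 2979 ± 428 TPM (SD, n = 4 each) and fell by 2.46 ± 0.18 on the log2 scale. Ribosome biogenesis genes were lower in 22 of 29 with none higher. FBL, the methyltransferase of ribosomal RNA, averaged 18.4 ± 5.62 TPM against 107 ± 20.1 TPM and NOP16, a nucleolar protein, 19.6 ± 4.08 TPM against 142 ± 7.597 TPM (SD, n = 4 each). SRM, the spermidine synthase, was at 4.5 and 4.74 TPM in the SP6A libraries and at 5.03 and 6.23 TPM in the SP14 libraries, against 125.5, 109, 87.6 and 123 TPM at day 12, and at 51.3 to 179 TPM in the later libraries. It was lower than in every one of those libraries.

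Nuclear-encoded subunits of the respiratory chain were lower in 59 of 70 and higher in 3. ATP5MC1, part of the proton ring of ATP synthase, averaged 58.5 ± 4.5 TPM against 538 ± 64.6 TPM and ATP5F1D, of the same enzyme, 81.5 ± 22.8 TPM against 658 ± 66.6 TPM (SD, n = 4 each). Of the 13 mitochondrially encoded protein genes, 4 were higher (30.8%, near the 34.1% over all genes) and 7 lower. With median-ratio scaling 2 of them were higher and 9 lower. Their share of TPM was 6.17 ± 0.38% against 6.96 ± 0.50% at day 12 (SD, n = 4 each), and the exact permutation p was 0.0571, or 0.0286 without day 12 replicate 2. Glycolysis and hypoxia-response genes were lower in 19 of 34 and higher in 8. LDHA, the lactate dehydrogenase, was at 73.97 to 91.1 TPM against 529 to 824 TPM at day 12, and TPI1, a glycolytic isomerase, averaged 525 ± 15.4 TPM against 1691 ± 143 TPM (SD, n = 4 each). ADM, the gene of the vessel-relaxing peptide adrenomedullin and a hypoxia-response gene, was higher, at 362 to 579 TPM against 12.9 to 16.8 TPM. PDK4, a kinase that turns off pyruvate oxidation, was at 37.8 to 69.1 TPM against 0.05 to 1.11 TPM. LDHA did not differ from the later days at the threshold (log2 difference -0.37, adjusted p = 0.072, limma), and did without day 19 replicate 3 (-0.43, adjusted p = 0.028, limma).

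Unfolded protein and amino acid stress genes were higher in 8 of 27 and lower in 8 (29.6% each way, near the 34.1% and 25.1% over all genes), with PHGDH, the first enzyme of serine synthesis, at 0.55 to 3.44 TPM against 30.5 to 34.7 TPM at day 12 and SLC7A11, the cystine importer, at 6.61 to 11.5 TPM against 0.11 to 0.24 TPM. Heat shock chaperones were higher in 7 of 14 and lower in 3 (21.4%, near the 25.1% over all genes). Matrix proteases and inhibitors were higher in 9 of 16 and lower in 5 (31.2%, not far from that share). Without day 12 replicate 2 or SP14 replicate 2, 3 were lower. MMP9, a gelatinase, averaged 8.22 ± 1.27 TPM against 273 ± 114 TPM, and MMP2, the other gelatinase, 37.4 ± 4.57 TPM against 0.68 ± 0.49 TPM (SD, n = 4 each), so the pair moved in opposite directions without overlap. Osteoclast genes were higher in 7 of 9 and lower in 1, integrins and adhesion genes in 13 of 21 and 4, and immune metabolism genes in 8 of 15 and 4. The lower shares of the adhesion (19%) and immune metabolism lists (26.7%) were not far from the 25.1% over all genes. KYNU, the kynureninase of tryptophan breakdown, was at 254 to 390 TPM against 4.2 to 9.71 TPM. Actin cytoskeleton genes were higher in 5 of 22 and lower in 9, and TGF-beta and BMP genes in 4 of 14 each way (28.6%, also near the shares over all genes).

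Several other genes were among those with the largest changes. EDNRB, a receptor of endothelins, was at 63.1 to 91.4 TPM in the SP6A and SP14 libraries, against 0.29 TPM in 1 day 12 library and 0 in the other 3. IGF1, the growth factor, averaged 413.5 ± 99.0 TPM against 7.83 ± 1.93 TPM, and TMEM176B, a membrane protein of myeloid cells, 198 ± 13.2 TPM against 5.15 ± 1.09 TPM (SD, n = 4 each). Among the decreases, CES1, a carboxylesterase of monocytes, was listed at 0 in all SP6A and SP14 libraries and at 57.3 to 79.0 TPM at day 12. G0S2, an inhibitor of fat breakdown, averaged 11.8 ± 2.23 TPM against 386 ± 66.6 TPM (SD, n = 4 each). Genes with the largest changes were named only where the groups did not overlap, so the lack of overlap here follows from the rule. Over all genes tested, 53.9% did not overlap.

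Fewer genes were called between SP14 and SP6A than against day 12, in a test with fewer libraries. Over genes with a mean of at least 50 TPM, the median absolute log2 difference between SP6A and SP14 libraries was 0.23 to 0.26. It was 0.096 within SP6A and 0.13 within SP14, and 0.93 to 1.18 between SP6A or SP14 libraries and day 12 libraries. In the direct comparison 15 of 12942 genes (0.116%) were higher in SP14 and 7 (0.0541%) lower, and 1380 had an unadjusted p under 0.05. With 2 libraries a label, the count moved from 0 to 432 with the settings tried, and lower genes were the majority in some: 9 were higher and 25 lower with all 3D libraries in the fit, 4 and 17 without SP6A replicate 1, and 0 and 21 without SP6A replicate 2. Rescaled without clone-named and mitochondrial genes 2 were higher and 5 lower. Each gene named here lost its call under at least 1 of the settings tried. INSIG1, a sterol sensor that holds back SREBP, was at 217 and 226 TPM in the SP14 libraries and at 76.8 and 87.6 TPM in the SP6A libraries, with day 12 at 144 to 194 TPM between them. The log2 difference of SP14 minus SP6A was 1.42 ± 0.17 (adjusted p = 0.034, limma). MYC, described above, was higher in SP14 by 1.502 ± 0.21 (adjusted p = 0.045, limma). ACSL1 and ACSL5, which activate fatty acids by joining them to coenzyme A, were at 288 and 325 TPM and at 34.5 and 42.2 TPM in the SP14 libraries, against 108 and 116 TPM and 13.2 and 12.3 TPM in the SP6A libraries. IL1B was at 5191 and 5397 TPM in the SP14 libraries, against 3035 and 3058 TPM in the SP6A libraries (log2 difference 0.80 ± 0.11, adjusted p = 0.045, limma).

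In the other direction, YPEL3, a growth-restraining gene, was at 21.9 and 18.3 TPM in the SP14 libraries, against 65.9 and 59.8 TPM in the SP6A libraries. EVA1B, S100A6, a calcium-binding protein, and PRDM1, the repressor Blimp-1, differed by -1.80 ± 0.23, -1.44 ± 0.20 and -1.41 ± 0.20 on the log2 scale. The rule for the largest differences required both SP14 values on 1 side of both SP6A values. For the genes it chose, that separation is therefore no further result. PLIN2, OSGIN1, CXCL8 and EGR2 also had both SP14 values above both SP6A values, and were not called between the labels (log2 differences 0.91, 0.77, 0.72 and 0.99, adjusted p = 0.16, 0.29, 0.21 and 0.16, limma).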

How the data were processed

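Bulk RNA was extracted with TRIzol and libraries were made by SMART-seq2, per the labels' protocols. The authors deposited TPM, which relate reads to transcript length and to the library's total, in 1 table of 58735 genes and 32 libraries. Per the submitters' processing notes, the tools of the series include HISAT2, HTSeq 0.11.1, Trim Galore 0.4.4 and DESeq2, with build hg38, but none is tied to the TPM. TPM keep no depth, so precision is judged from the spread between libraries.

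Each column took its sample from the sample's title. TPM were used as log2(TPM + 1). Genes with a mean of 1 TPM or more in the libraries fitted were tested with limma 3.58.1 (eBayes with a trend on level, R 4.3.3), two-sided, and p-values were adjusted by Benjamini-Hochberg and called under 0.05. SP6A and SP14 were fitted as 1 group against day 12 (8 libraries), as separate groups, and as 1 group against the equal-weight mean of days 16, 19 and 23 (13 libraries). Shares of TPM were compared by an exact permutation test. The scripts were tested on simulated data. Promoters are from RefSeq on GRCh38.p14; 12039 of 12942 tested genes matched RefSeq.

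The libraries, the 52 gene lists (37 of pathways or functions, 15 of cell types) and the tests were chosen with earlier results of these data known. The text selects from the 15 largest increases and 15 largest decreases without overlap and with 5 TPM or more in the higher group, up to 4 genes of each list with the lowest adjusted p, a set of macrophage, growth and cytokine genes, and the 5 largest differences each way between SP14 and SP6A. Genes named only to complete a count, copies and mitochondrial RNA, members that run against their list, and CLC, TXNRD1, GCLM, GAA, MCOLN1, CTSA, CX3CR1 and FOS fall outside this rule and were chosen after their values were seen. Alternatives were another pseudocount, other filters, median-ratio scaling, rescaling without 3 clone-named and the mitochondrial genes, no trend, library weights, a replicate block, other groupings of the fit and leaving out each library. Deviations of same-numbered libraries from their group means had correlations of -0.055 to 0.004 over 6 pairs, and the numbers were not taken to pair samples. The 2 libraries of SP6A, and of SP14, mirror each other around their mean, so the 6 values are not independent. Chromatin and single-cell samples were not analysed here. Some genes that the naming rule selects are not reported here.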

Additional observations from a re-analysis of the deposited data

Results flagged for a closer look

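In 14 of 318 groups of 4 values checked, 1 library stood apart from the other 3 by Dixon's ratio, where chance flags about 1 in 20. Day 12 replicate 4 stood apart in CLC, at 228 TPM with the other day 12 libraries at 0, in MCOLN1, at 9.17 TPM against 37.5 to 41.2 TPM, and in PRDX1, at 698 TPM against 957 to 1007 TPM. Day 12 replicate 1 stood apart in FBL, at 137 TPM against 95.6 to 97.8 TPM, in FCN1, at 106 TPM against 127 to 130 TPM, in CTSA, at 76.3 TPM against 94.3 to 97.1 TPM, and in EDNRB, at 0.29 TPM with the others at 0. SP14 replicate 1 stood apart in GCLM, at 70.3 TPM against 7.65 to 15.3 TPM, and in LAMP1, at 56.5 TPM against 14.2 to 17.1 TPM. SP14 replicate 2 was the low library in KLF2, at 0.15 TPM against 0.41 to 0.45 TPM. SP6A replicate 1 stood apart in ACP5, at 306 TPM against 313 to 314 TPM, in IFI44, at 6.56 TPM against 7.98 to 8.13 TPM, and in HLA-DPB1, at 8.53 TPM against 2.91 to 3.62 TPM. SP6A replicate 2 was the high library in ATP5F1D, at 116 TPM against 67.1 to 72.8 TPM.

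The SP14 and the SP6A effect against day 12 differed past the threshold in 9 of the genes named, on the log2 scale of SP14 minus SP6A. The naming rule for this comparison required both SP14 libraries on 1 side of both SP6A libraries. The differences were 1.44 in ACSL1, 1.51 in ACSL5, 0.80 in IL1B, 1.42 in INSIG1 and 1.502 in MYC. They were -1.80 in EVA1B, -1.41 in PRDM1, -1.44 in S100A6 and -1.60 in YPEL3.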

How the results depend on the processing

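The counts of called genes for SP6A and SP14 against day 12 (5751 to 7775), for each label alone and against the later days (5220 to 7583) stayed within 1.5 times of the values reported under every alternative run. The count between SP14 and SP6A did not. It was 22 as reported, 4 with a pseudocount of 0.1 and without the trend, and 202 (58 higher and 144 lower) with no filter. Rescaling without clone-named and mitochondrial genes gave 7, library weights 432, and all 3D libraries in the fit 34. The replicate block, whose numbers were not taken to pair the samples, gave 0. With single libraries left out, the count ranged from 0 (without day 12 replicate 3) to 187 (without day 12 replicate 4). It was 4 without day 12 replicate 1 and 8 without SP14 replicate 2. The ribosomal protein share differed by -8.44 to -6.60 percentage points when single libraries were left out; leaving out any SP6A or SP14 library gave an exact permutation p of 0.0571, against 0.0286 with all. The mitochondrial share ranged from -0.96 (exact permutation p = 0.0286, without day 12 replicate 2) to -0.60.

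Of 145 named genes called against day 12, 14 lost the call under at least 1 alternative and 9 of them with the replicate block; all 9 called between SP14 and SP6A lost it under some. Directions reversed only in uncalled genes: CD14 (-0.058) and SPP1 (-0.16) with median-ratio scaling, C1QB (0.0075) after rescaling, SPP1 over -0.10 to 0.17 and C1QB over -0.11 to 0.012 when single libraries were left out. The causes were not tested. The 2 libraries of each label limit the comparison between them, and depth is unknown.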
